A study of Oryza sativa with 30 samples.

Results

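Leaf RNA of untreated rice (Oryza sativa) seedlings was compared between a line labelled as a ku70 mutant and the wild type DJ. All 4 libraries of these 2 groups were taken by their labels, 2 of ku70 and 2 of DJ, out of 30 libraries in the series. The series as a whole set lines altered in DNA damage and topoisomerase genes against wild types after gamma irradiation or cold. The ku70 group holds libraries labelled as untreated leaves of the mutant, and the DJ group libraries labelled as untreated leaves of the wild type. Seedlings of both groups were 14 days old and were grown in test tubes on 0.5-strength Murashige and Skoog medium at 26 °C with 13 h of light and 11 h of dark, although a second note among the labels places the plants in paddy fields. Neither the type of the ku70 allele nor the number of plants behind a library is given, and nothing states that the 2 libraries of a group came from separate plants, so the p-values measure the spread between libraries, which may be technical. A further 2 libraries of each line, taken 6 h after 40 Gy of gamma rays, were used to measure the line difference again in other libraries. The fit also held 1 library each of the lines labelled TOP6A3-OE1 and TOP6A3-OE1 atm, taken 6 h after 40 Gy.

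KU70 and KU80 form a ring-shaped pair that slides onto broken DNA ends, keeps them from being trimmed and calls in the ligase of non-homologous end joining. In plants the pair also sits at telomeres. In an unirradiated leaf most RNA comes from the mesophyll, where the nuclear genes of the photosystems, the light-harvesting antenna and the Calvin cycle are among the most highly expressed, while genes of cell wall building mark cells that are still growing or that form the veins and the outer surface.

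The values were FPKM, which divide the reads of a gene by its length and by a library factor. They corresponded to 14653543 and 15906800 reads on genes in the ku70 libraries and to 12669270 and 13772220 reads in the DJ libraries. Of 40718 genes listed, 21755 and 20191 were above 0 in the ku70 libraries and 20454 and 17782 in the DJ libraries, so ku70 replicate 1 detected the most genes and DJ replicate 2 the fewest. In ku70 replicate 1, 8.30% of the detected genes rested on 1 to 10 reads, against 2.77% in ku70 replicate 2 and against 2.57% and 1.28% in the DJ libraries. The ku70 libraries correlated with each other at r = 0.937 across 23063 genes on the log2(FPKM + 1) scale, and the DJ libraries at r = 0.864, while libraries of different lines correlated at 0.863 to 0.886, so the DJ pair was no closer than most pairs of different lines, a description over genes that share each library's depth. The 50 most abundant genes took 26.0% and 26.1% of the reads in the ku70 libraries, against 19.4% and 20.9% in the DJ libraries. Leaf identity was clear in all 4 libraries: the 24 light-harvesting genes summed to 59490.5 and 61984 FPKM in the ku70 libraries and to 39314.5 and 31478 FPKM in the DJ libraries. The 24 genes of the root list summed to only 103 and 108 FPKM in the ku70 libraries and to 245.5 and 158 FPKM in the DJ libraries, with 15 of them at 0 in all 4 libraries.

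KU70 itself (OsKu70, Os07g0184900, on chromosome 7 from 4485257 to 4498866 in the files' coordinates, whose build is not given in the sources used here) had 24.7 and 37.8 FPKM in the libraries labelled ku70, against 5.31 and 0.319 FPKM in the DJ libraries. The transcript was thus higher in the mutant-labelled libraries, which goes against the label if the allele were a loss of transcript. The log2 difference was 3.45 (SE 0.83) and did not pass the test (limma, adjusted p = 0.304). DJ replicate 2 stood lowest, and on the log2 scale the DJ libraries lay farther from each other than the ku70 libraries did. A value over the whole gene cannot tell an altered transcript from an intact one. An allele that keeps or raises its transcript, an exchange of labels and the spread between libraries cannot be told apart here. An exchange would turn the sign of every ku70 minus DJ difference, so ku70 and DJ below name the labels of the libraries. KU80 (OsKu80, Os03g0856200), the partner subunit, had 20.5 and 23.3 FPKM in ku70 and 20.5 and 13.4 FPKM in DJ, a log2 difference of 0.38 (SE 0.33, adjusted p = 0.934).

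The other genes of end joining and telomere maintenance showed no call. All 13 genes of that list were tested, 0 were called in either direction, and their median log2 difference was 0.27, against 0.02 over all 23063 genes tested. DNA ligase 4 (OsLig4, Os04g0606450), which seals the joined ends, had 16.2 and 28.1 FPKM in ku70 and 25.8 and 18.3 FPKM in DJ, so the groups overlapped. NBS1 (Os10g0487300), a subunit of the complex that senses breaks, had 2.44 and 0.263 FPKM in ku70 and 2.55 and 6.14 FPKM in DJ, where ku70 replicate 1 lay just under DJ replicate 1 (log2 difference -1.27, adjusted p = 0.764). The telomerase gene OsTERT (Os12g0293100) was at 1.16 and 0.701 FPKM in ku70 and at 0 in both DJ libraries (adjusted p = 0.781). The wider list of DNA damage response and repair had 57 of its 65 genes tested, with 0 called and a median of 0.13.

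Within that wider list the genes with the smallest p were PARP2A, ST1 and an alkB homolog. PARP2A (Os01g0351200), a poly(ADP-ribose) polymerase that marks DNA breaks, had 3.56 and 3.81 FPKM in ku70 and was listed at 0 in both DJ libraries (adjusted p = 0.153). ST1 (Os06g0257450), STRIPE 1, a subunit of the enzyme that makes deoxyribonucleotides, had 24.4 and 24.1 FPKM in ku70, against 3.00 and 0 FPKM in DJ (adjusted p = 0.157). Os11g0657200, described as alkB homolog 8, was at 4.55 and 2.91 FPKM in ku70 and at 12.1 and 13.2 FPKM in DJ (adjusted p = 0.335). In all 3 the groups did not overlap, as in 37.8% of all genes tested, and no difference passed the test.

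Across the genome, limma on log2(FPKM + 1), with a spread taken from the replicates of both lines untreated and at 40 Gy, called 143 of 23063 genes between ku70 and DJ, 0.62% of those tested, of which 91 were higher in ku70 (0.395%) and 52 lower (0.225%). At an unadjusted p under 0.05 there were 1830 genes, 7.93% of those tested. Most calls were of genes at 0 in a whole group. Among the 143, 82 were detected in both ku70 libraries and at 0 in both DJ libraries, 42 were detected in both DJ libraries and at 0 in both ku70 libraries, 5 were at 0 in a single library of a pair, and 14 were above 0 in all 4 libraries, 7 higher and 7 lower in ku70. The calls rest on a spread that includes the 40 Gy replicates: 112 of the 143 called genes were at 0 in all 4 of the 40 Gy libraries, and replicates that are all at 0 add degrees of freedom but no spread, which makes the standard errors of such genes small. With the 4 untreated libraries alone limma called 0 genes at the same threshold (2312 at an unadjusted p under 0.05), limma-voom on the recovered reads called 0 (1609 at an unadjusted p under 0.05), and a fit restricted to genes above 0 in all 4 untreated libraries called 3. The split between higher and lower calls moved with the library left out. Leaving out a DJ library, replicate 1 or 2, gave more lower than higher calls. Leaving out a ku70 library, replicate 1 or 2, gave a larger excess of higher calls than the full fit.

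Among genes above 0 in all 4 libraries, a pair of Bowman-Birk inhibitor genes had the largest rises of described genes that were called. Bowman-Birk proteins block trypsin-like proteases and are known as wound- and jasmonate-responsive proteins in rice leaves. RBBI2-2 (Os01g0123900) had 536 and 604 FPKM in ku70, against 57.2 and 38.7 FPKM in DJ, and averaged 570 ± 48.3 FPKM in ku70 and 47.9 ± 13.1 FPKM in DJ (SD, n = 2 each), 11.9-fold higher (log2 difference 3.57, SE 0.42, limma adjusted p = 0.0448). RBBI2-1 (Os01g0124000) had 82.2 and 69.8 FPKM in ku70, against 7.25 and 4.22 FPKM in DJ (13.2-fold higher, log2 difference 3.55, SE 0.34, adjusted p = 0.0247). Both ku70 libraries lay far above both DJ libraries for each gene.

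The 2 genes lie next to each other on the minus strand of chromosome 1, at 1338241 to 1339098 and 1341368 to 1342277, among further members of the family. RBBI3-1 (Os01g0124200) had 60.1 and 51.1 FPKM in ku70 and 8.85 and 13.3 FPKM in DJ (adjusted p = 0.763), and RBBI3-2 (Os01g0124100) had 2.90 and 10.5 FPKM in ku70 and was listed at 0 in DJ (adjusted p = 0.498). Of the 5 RBBI genes tested, 4 were higher in both ku70 libraries than in both DJ libraries (20.6% of all genes), 2 of them called (0.395%), and the fifth was at 0 in all 4 libraries. The family was singled out after its values were seen. Its members are close copies, and reads may have been split between them, so the family sum of 681 and 735 FPKM in ku70, against 73.3 and 56.2 FPKM in DJ, is the safer measure.

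A lipoxygenase, a J-domain protein and a ribosomal protein made up the other called rises of described genes. OsLOX1 (Os02g0194700), which oxygenates polyunsaturated fatty acids, had 191 and 207 FPKM in ku70, against 37.9 and 40.1 FPKM in DJ, 5.10-fold higher (log2 difference 2.32, SE 0.22, adjusted p = 0.0255). OsDjC35 (Os03g0776900), a DnaJ domain protein of the class that hands substrates to HSP70 chaperones, had 49.5 and 51.5 FPKM in ku70, against 11.8 and 11.4 FPKM in DJ, 4.35-fold higher (log2 difference 2.03, SE 0.17, adjusted p = 0.0174). RPS20 (Os06g0134000), a protein of the small ribosomal subunit, had 139.8 and 160.5 FPKM in ku70 and 66.1 and 66.4 FPKM in DJ, 2.27-fold higher (adjusted p = 0.0391). In each of these 3 genes the replicates of a group differed by much less than the groups did. The remaining 2 called rises carried no description: Os09g0272600 averaged 156 ± 18.6 FPKM in ku70 and 10.02 ± 0.639 FPKM in DJ, and Os01g0959750 averaged 138 ± 8.68 FPKM in ku70 and 21.1 ± 7.27 FPKM in DJ (SD, n = 2 each).

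A further 5 genes came next in order of p without passing the test. Os01g0881400, described as Protein artemis, a nuclease known in animals for opening hairpin ends before end joining, had 20.2 and 21.1 FPKM in ku70, against 5.19 and 2.69 FPKM in DJ (log2 difference 2.18, SE 0.31, adjusted p = 0.0825). OsAPx4 (Os08g0549100), an ascorbate peroxidase that removes hydrogen peroxide, had 446 and 495 FPKM in ku70 and 180 and 216 FPKM in DJ (adjusted p = 0.0771). Os07g0142900, described as a chloroplast oxidoreductase, had 1220 and 1181 FPKM in ku70 and 448 and 487 FPKM in DJ (adjusted p = 0.0746). Os01g0113500, described as a receptor kinase like the rust resistance kinase Lr10, had 5.58 and 5.37 FPKM in ku70 and 1.54 and 1.03 FPKM in DJ (adjusted p = 0.0629). The fifth, PSAH, is given with the photosystems.

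The called falls were led by genes of the cell wall and the cell surface. OsXTH10 (Os06g0697000), a xyloglucan endotransglucosylase that cuts and rejoins wall polymers, was almost absent from ku70, with 1.00 and 1.53 FPKM, against 283 and 163 FPKM in DJ, 176-fold lower (log2 difference -6.58, SE 0.39, adjusted p = 0.0103). The class III peroxidase prx65 (Os05g0134400), of a family that cross-links wall polymers, had 8.17 and 4.06 FPKM in ku70, against 170 and 135 FPKM in DJ, 24.9-fold lower (log2 difference -4.48, SE 0.40, adjusted p = 0.021). The peroxidase OsPOD (Os01g0294700) had 3.93 and 7.36 FPKM in ku70 and 222 and 118 FPKM in DJ and narrowly missed the threshold (adjusted p = 0.0759). In all 3 genes the groups stood more than an order of magnitude apart.

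Lipid transfer proteins, which carry wax and cutin monomers to the leaf surface, gave a further pair of calls. Os11g0115350, named LTP2-A, had 97.0 and 72.0 FPKM in ku70, against 648 and 1200 FPKM in DJ, 10.9-fold lower (log2 difference -3.38, adjusted p = 0.0424). OsLTP1.17 (Os12g0115000) had 589 and 507 FPKM in ku70, against 2547 and 2958 FPKM in DJ, 5.03-fold lower (log2 difference -2.33, adjusted p = 0.0391). The 2 genes lie near the ends of chromosomes 11 and 12, which share a duplicated block in rice, so reads may be shared between them. Across the family, of 31 OsLTP genes tested, 15 were above 0 and 14 below, with a median of 0.

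A vacuolar iron transporter, an actin and Protein MARD1 made up the other called falls. OsVIT2 (Os09g0396900), a vacuolar iron transporter, had 10.4 and 10.4 FPKM in ku70, against 68.8 and 67.6 FPKM in DJ, 6.56-fold lower, with almost no spread within either group (log2 difference -2.60, SE 0.20, adjusted p = 0.0141). RAC7 (Os01g0866100), actin 7, had 134 and 105.9 FPKM in ku70, against 314 and 313 FPKM in DJ, 2.61-fold lower (adjusted p = 0.0424). Os09g0433800, described as Protein MARD1, had 88.0 and 77.7 FPKM in ku70, against 394 and 259 FPKM in DJ, 3.94-fold lower (adjusted p = 0.049). Next in order of p were OsC3H41 (Os06g0318700), a CCCH zinc finger protein at 0.643 and 0.5305 FPKM in ku70 and 5.34 and 7.81 FPKM in DJ (adjusted p = 0.0746), and OsTCL2 (Os01g0619900), named TRICHOMELESS 2, at 3.68 and 3.50 FPKM in ku70 and 17.97 and 24.1 FPKM in DJ (adjusted p = 0.0749).

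**Figure D1:**
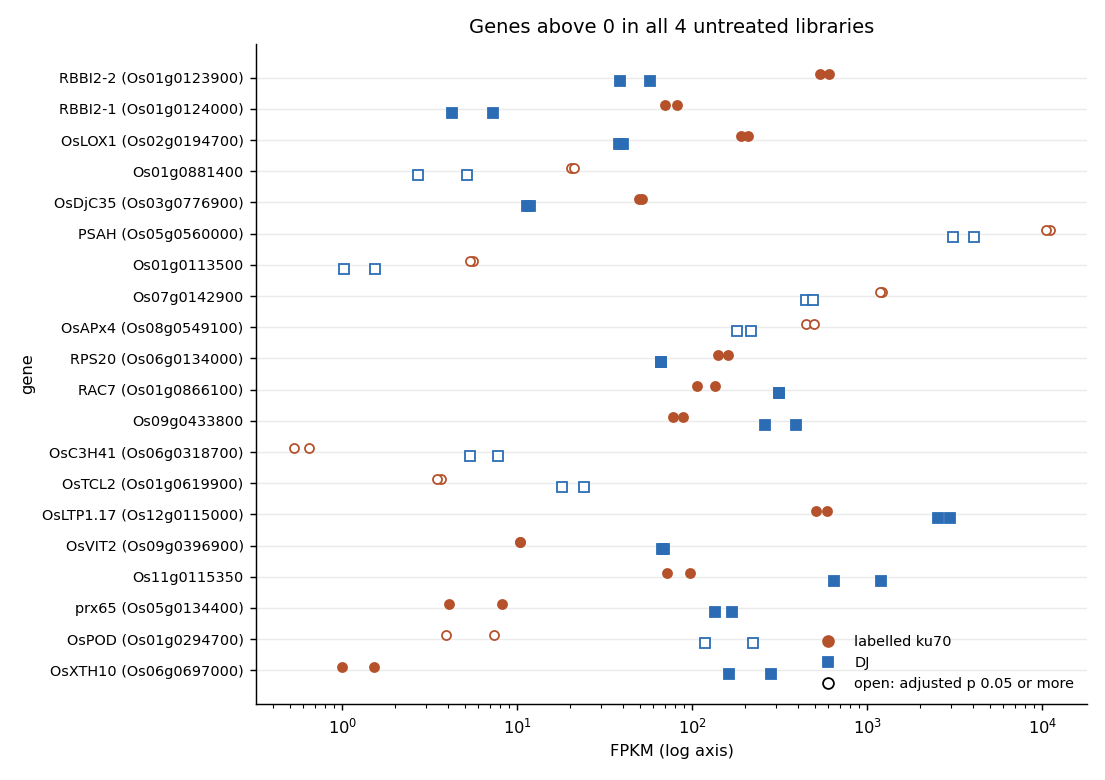
FPKM in each untreated library (log axis) of the 20 genes named above that were above 0 in all 4 libraries, with circles for the libraries labelled ku70 and squares for DJ, ordered by log2 difference. Filled symbols mark genes with an adjusted p under 0.05, and in none of the 20 do the groups overlap, which the choice of genes required.

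Most nuclear genes of the photosystems had higher values in ku70, although 0 of them passed the test. Of the 30 photosystem and electron transport genes tested, 27 were above 0 in log2 difference (51.4% of all genes tested), 23 did not overlap between groups and were higher in ku70, and 0 did not overlap and were lower. Over all genes tested, 20.6% did not overlap and were higher in ku70 and 17.2% did not overlap and were lower. At an unadjusted p under 0.05, 16 of the 30 were higher in ku70 and 0 lower, against 4.48% and 3.45% of all genes, and 0 were called after adjustment. The median log2 difference was 0.92, and it lay between 0.83 and 1.03 in the 4 pairings of a ku70 with a DJ library. Summed over the list of 34 genes, the photosystem genes stood at 115225 and 121711 FPKM in ku70 and at 52234 and 50099 FPKM in DJ.

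The photosystem I subunits gave the most even picture. All 8 tested were higher in both ku70 libraries than in both DJ libraries, with log2 differences between 0.83 and 1.61. PSAH (Os05g0560000), a subunit at the docking face for the mobile antenna, had 11033 and 10507 FPKM in ku70, against 4057 and 3082 FPKM in DJ (log2 difference 1.61, SE 0.23, adjusted p = 0.0857). PsaN (Os12g0189400) had 4070 and 4640 FPKM in ku70 and 2128 and 2136 FPKM in DJ (log2 difference 1.03, adjusted p = 0.192). Among 10 photosystem II genes tested, OsPsbR3 (Os08g0200300), the most abundant, had 25189 and 28216 FPKM in ku70, against 6950 and 8018 FPKM in DJ (log2 difference 1.84, SE 0.32, adjusted p = 0.154). PSBW (Os01g0773700) had 5549 and 7109 FPKM in ku70 and 2805 and 2929 FPKM in DJ (adjusted p = 0.165). PsbO (Os01g0501800), of the oxygen-evolving complex, had 4819 and 5268 FPKM in ku70 and 2806 and 2201 FPKM in DJ (adjusted p = 0.25). Of the 10, 8 were above 0 and 2 below, and 6 did not overlap and were higher. PsbY (Os08g0119800) was among the 4 that overlapped, with 169 and 47.2 FPKM in ku70 and 69.9 and 148 FPKM in DJ.

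The antenna, the Calvin cycle and the chloroplast ribosome leaned the same way, with 0 called members in each. Of 20 light-harvesting genes tested, 18 were above 0 with a median of 0.64. LHCB (Os03g0592500), an antenna protein of photosystem II, had 7034 and 8375 FPKM in ku70 and 3887 and 3269 FPKM in DJ (log2 difference 1.11, adjusted p = 0.237). Of 41 chloroplast ribosome genes tested, 36 were above 0 with a median of 0.70. Os01g0805000, described as chloroplast ribosomal protein L34, had 167 and 172 FPKM in ku70 and 46.4 and 54.5 FPKM in DJ (log2 difference 1.73, adjusted p = 0.307). Of 20 Calvin cycle genes, 15 were above 0 with a median of 0.69. Without overlap, 10 were higher in ku70 (20.6% of all genes) and 2 lower (17.2%). Summed over the list of 24 genes, they stood at 42079 and 37546 FPKM in ku70 and at 20692 and 37098 FPKM in DJ. DJ replicate 2 thus lay close to ku70 replicate 2. OsCFR (Os03g0267300), the chloroplast fructose bisphosphatase, had 982.5 and 1049 FPKM in ku70 and 298.6 and 207 FPKM in DJ (log2 difference 2.03, adjusted p = 0.285).

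Genes of the Rubisco small subunit did not follow. RbcS3 (Os12g0291100) had 8000 and 7583 FPKM in ku70 and 5313 and 7784 FPKM in DJ, so the groups overlapped (log2 difference 0.28, adjusted p = 0.986). A second gene, RBCS (Os12g0274700), had 3894 and 3437 FPKM in ku70 and 3780 and 4540 FPKM in DJ (log2 difference -0.18, adjusted p = 1). Chlorophyll synthesis had a median of 0.14 over 20 genes tested, with 12 of them above 0. FGL (Os10g0496900), which reduces protochlorophyllide in the light, had 73.3 and 70.0 FPKM in ku70 and 42.0 and 28.9 FPKM in DJ (adjusted p = 0.257). The 22 chloroplast-encoded genes tested had a median of -0.16 with 1 called, petD (CAA33978), at 0 in both ku70 libraries and at 3.37 and 4.29 FPKM in DJ (adjusted p = 0.0125). Reads of the chloroplast genome made up only 0.0708% and 0.187% of the ku70 libraries and 0.134% and 0.0764% of the DJ libraries.

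The differences of abundant genes went up with their level. Over the genes above 0 in all 4 libraries, the median log2 difference was -0.08 for 6073 genes with a mean of 1 to 10 FPKM, 0.03 for 8056 genes at 10 to 100 FPKM, 0.21 for 1222 genes at 100 to 1000 FPKM and 0.60 for 105 genes at 1000 FPKM or more. Among the last, 34 belonged to the 4 chloroplast lists described above, and the other 71 had a median of 0.42. When the values were rescaled to the total of the recovered reads, the median of all genes moved to -0.11 and the photosystem median to 0.66, and under quantile normalization the photosystem median was 0.51. The part of the level and of the scaling in the photosystem difference was not tested.

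**Figure D2:**
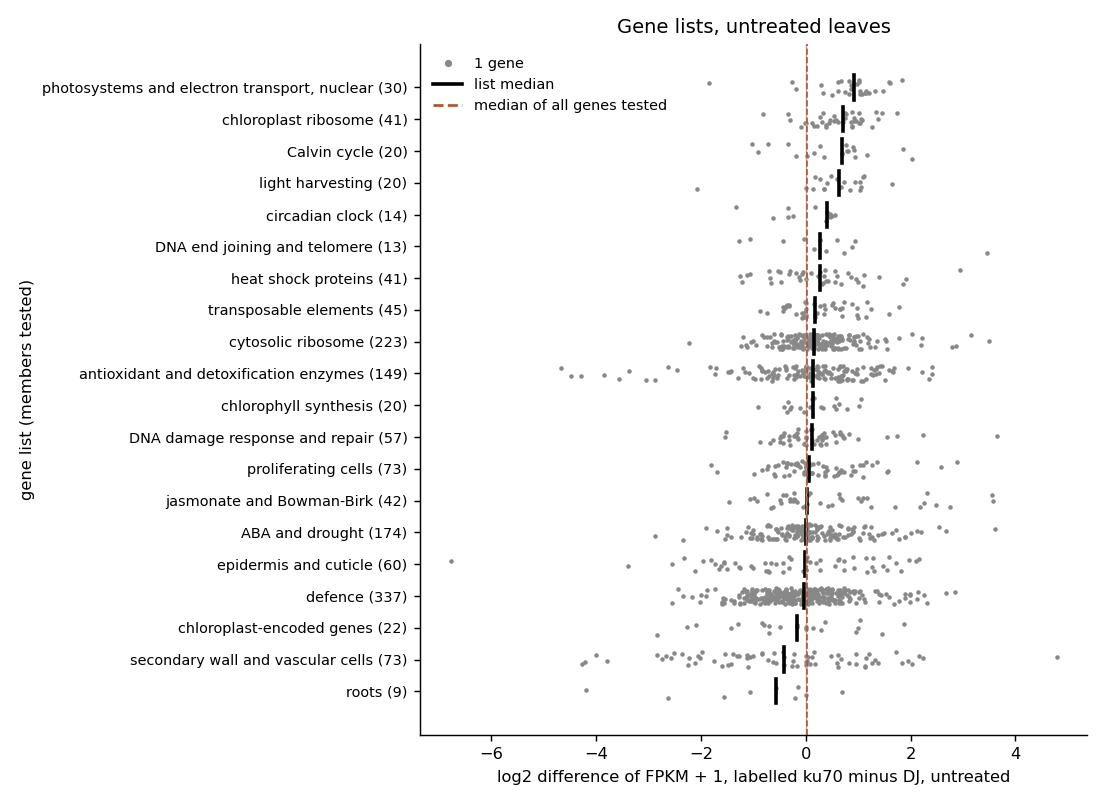
Log2 difference of FPKM + 1 between untreated leaves labelled ku70 and DJ for the tested members of 20 gene lists, each grey point a gene and each black bar the list median, with a dashed line at the median of all genes tested (0.02). The photosystem list has the highest median (0.92) and the root list the lowest (-0.56).

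Most cellulose synthase and fasciclin-like genes had lower values in ku70, with few calls. The list of secondary wall and vascular genes had a median of -0.42 over 73 genes tested, with 28 of them above 0, 42 below 0 (44.2% of all genes tested), 1 called higher (0.395% of all genes) and 2 called lower (0.225%). At an unadjusted p under 0.05, 17 were lower (3.45% of all genes) and 7 higher (4.48% of all genes). OsFLA9 (Os05g0163300), a fasciclin-like arabinogalactan protein of the outer cell face, was at 0 in both ku70 libraries and at 6.66 and 5.59 FPKM in DJ (adjusted p = 0.0103). OsLAC24 (Os11g0641800), a laccase of the family that polymerises lignin, was at 0 in both ku70 libraries and at 13.7 and 24.4 FPKM in DJ (adjusted p = 0.0255). The called rise was OsCOMTL1 (Os12g0199500), a methyltransferase-like gene at 1.76 and 1.46 FPKM in ku70 and at 0 in both DJ libraries (adjusted p = 0.0174). The list median was -0.06 without DJ replicate 1 and 0 when genes with low values were kept. Summed over its 141 genes, the list stood at 1345 and 1474.8 FPKM in ku70 and at 1984.8 and 1316.4 FPKM in DJ, so the groups overlapped.

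Families of wall genes were followed gene by gene after their values had been seen, and so carry no test of their own. Among the 7 cellulose synthase genes tested, 6 were lower in both ku70 libraries than in both DJ libraries (17.2% of all genes) and 0 were called. OsCesA1 (Os05g0176100) had 12.1 and 8.97 FPKM in ku70 and 60.8 and 31.6 FPKM in DJ (log2 difference -1.97, adjusted p = 0.173). OsCesA3 (Os07g0424400) had 4.94 and 4.72 FPKM in ku70 and 45.6 and 22.7 FPKM in DJ (log2 difference -2.51, adjusted p = 0.171). OsCesA8 (Os07g0208500), with 4.33 and 3.33 FPKM in ku70 and 16.3 and 6.76 FPKM in DJ, was also lower (adjusted p = 0.668). CesA1, CesA3 and CesA8 are subunits of the complexes of the primary wall, which growing cells lay down, whereas OsCesA4 (Os01g0750300), a subunit of secondary wall complexes, was the exception at 0.731 and 1.21 FPKM in ku70 and 0 in both DJ libraries. DJ replicate 1 was the higher DJ library in 5 of the 6, all but OsCesA11 (Os06g0601600).

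Fasciclin-like genes followed the cellulose synthases. Of 15 OsFLA genes tested, 10 were lower in both ku70 libraries than in both DJ libraries (17.2% of all genes) and 1 was higher (20.6%), with a median of -2.22 and 1 call, OsFLA9. OsFLA6 (Os05g0563600) had 24.6 and 13.5 FPKM in ku70 and 173 and 73.1 FPKM in DJ (adjusted p = 0.252), and OsFLA11 (Os09g0248100) had 0.603 and 2.61 FPKM in ku70 and 45.6 and 31.0 FPKM in DJ (adjusted p = 0.103). OsFLA8 (Os01g0159200) went the other way, at 26.2 and 27.3 FPKM in ku70 and 0 in both DJ libraries (adjusted p = 0.285). The family summed to 76.1 and 62.9 FPKM in ku70 and to 478 and 254 FPKM in DJ, so the DJ libraries also stood well apart from each other. Of 16 OsXTH genes tested, 6 were lower without overlap (17.2% of all genes) and 0 higher, among them OsXTH2 (Os11g0539200) at 0 in both ku70 libraries and 3.43 and 3.86 FPKM in DJ (adjusted p = 0.0125). OsEXPB2 (Os10g0555700), an expansin that loosens walls, was at 0 in both ku70 libraries and at 4.01 and 7.81 FPKM in DJ (adjusted p = 0.0362). In bulk leaves fewer cells of a type and less RNA per cell cannot be told apart.

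**Figure D3:**
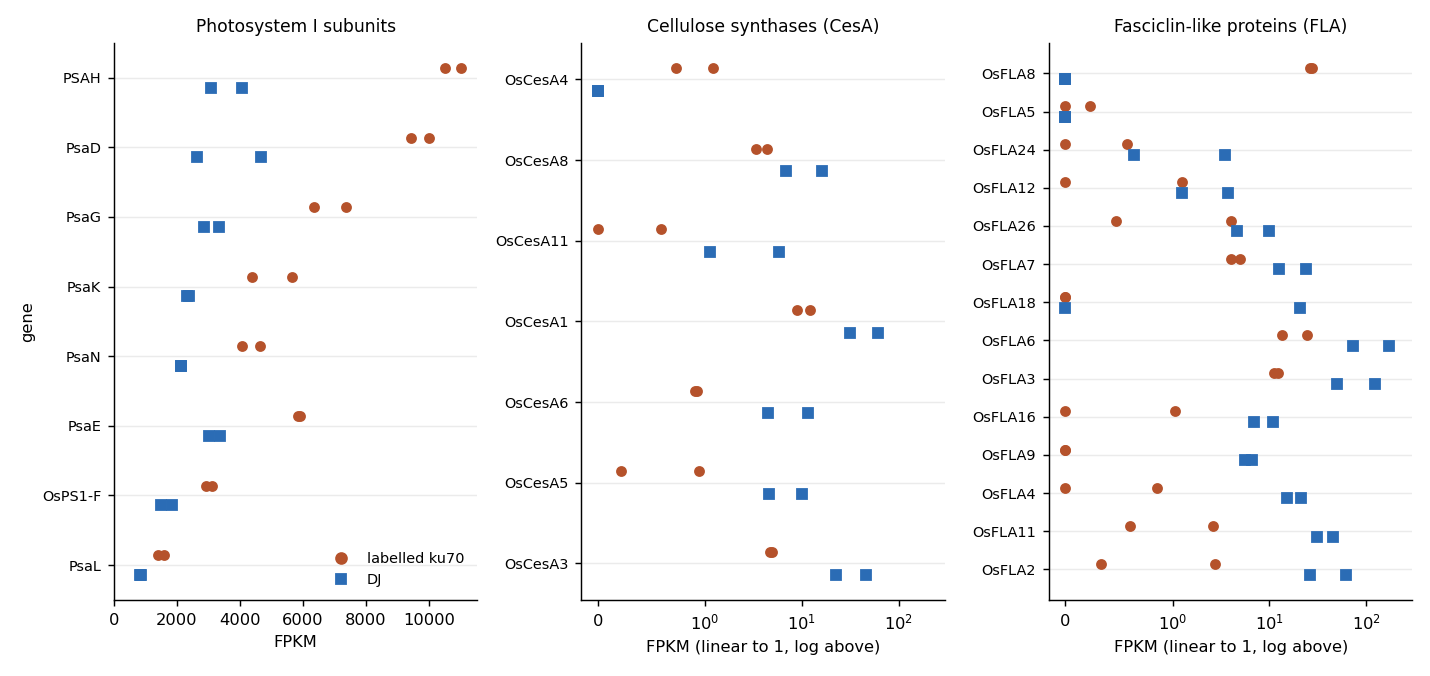
FPKM in each untreated library for photosystem I subunits (linear axis), cellulose synthases and fasciclin-like proteins (linear to 1 FPKM, logarithmic above), with circles for the libraries labelled ku70 and squares for DJ. All 8 photosystem I genes lie higher in ku70, while 6 of 7 cellulose synthases and 10 of the 14 tested fasciclin-like genes seen in any of the 4 libraries lie lower without overlap.

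Markers of other cells and organs moved in part with these genes. The root list, whose 24 genes were at 0 in both ku70 libraries for 19 and in both DJ libraries for 15, held the nitrate transporter NRT2.4 (Os01g0547600) at 7.63 and 6.58 FPKM in ku70 and 70.3 and 33.9 FPKM in DJ (adjusted p = 0.166). Its partner NAR2.1 (Os02g0595900) was at 0.0884 and 2.10 FPKM in ku70 and 39.1 and 27.2 FPKM in DJ (adjusted p = 0.304). The epidermis and cuticle list of 125 genes, 49 and 48 of them detected in ku70 and 46 and 40 in DJ, summed to 12018 and 12692 FPKM in ku70 and to 28444 and 17094 FPKM in DJ, had a median of -0.02, and held 2 calls, both lower and both lipid transfer genes named above. The list of proliferating cells, 118 genes with 41 at 0 in all 4 libraries, summed to 7771 and 8069 FPKM in ku70 and to 7526 and 6134.5 FPKM in DJ and had a median of 0.06 with 0 calls. The part of the number of such cells in the wall and surface differences was not tested.

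Stress and signalling lists had medians near that of all genes, with a few called members. The jasmonate and Bowman-Birk list had 42 genes tested, 3 called higher (0.395% of all genes), namely the RBBI2 pair and OsLOX1, and 0 lower, with a median of 0.03. The jasmonate repressor gene OsJAZ2 (Os03g0180900) was at 3.88 and 3.25 FPKM in ku70 and at 0 in both DJ libraries (adjusted p = 0.401), whereas OsJAZ9 (Os08g0428400) was at 7.76 and 6.46 FPKM in ku70 and 12.4 and 12.7 FPKM in DJ (adjusted p = 0.722). The defence list had 337 genes tested with 1 called in each direction, a share near the 0.62% called over all genes, and a median of -0.02. OsWRKY60 (Os03g0657400), a transcription factor, was at 5.11 and 5.61 FPKM in ku70 and 0 in both DJ libraries (adjusted p = 0.0426), and Os01g0946500, a beta-glucanase, was at 0 in both ku70 libraries and at 1.75 and 2.98 FPKM in DJ (adjusted p = 0.0424).

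The ABA and drought list had 174 genes tested, 2 called higher (0.395% of all genes) and 0 lower, with a median of 0.01. Both were late embryogenesis abundant proteins, which protect drying cells: Os05g0367900 had 8.86 and 14.2 FPKM and Os07g0531500 had 1.505 and 1.24 FPKM in ku70, and both were at 0 in DJ (adjusted p = 0.0218 and 0.0387). The antioxidant and detoxification list had 149 genes tested, 0 called higher and 2 lower (0.225% of all genes), namely prx65 and OsGSTU14 (Os10g0528900), a glutathione transferase at 0 in both ku70 libraries and at 9.05 and 12.9 FPKM in DJ (adjusted p = 0.0103). Its median was 0.14.

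Heat shock, ribosome, clock and transposon lists completed the picture. Heat shock proteins had a median of 0.27 over 41 genes tested with 0 called, and OsHsp24.1 (Os02g0758000), a small chaperone, had 11.5 and 8.68 FPKM in ku70 and 1.03 and 0 FPKM in DJ (adjusted p = 0.17). Cytosolic ribosome genes had a median of 0.15 over 223 tested with 2 called higher (0.395% of all genes), RPS20 and Os03g0259500, a ubiquitin-L40 fusion at 3.61 and 3.55 FPKM in ku70 and 0 in DJ (adjusted p = 0.0117). The 14 clock genes tested had a median of 0.40 with 0 called. CCA1 (Os08g0157600), a morning gene of the clock, had 840 and 694 FPKM in ku70 and 467 and 621 FPKM in DJ (adjusted p = 0.645), and GI (Os01g0182600), which peaks towards evening, had 150 and 145 FPKM in ku70 and 116 and 99.0 FPKM in DJ (adjusted p = 0.629). Transposable elements had a median of 0.18 over 45 genes tested with 0 called.

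Many more genes were seen in ku70 alone than in DJ alone. Of 40718 genes listed, 15621 were above 0 in all 4 libraries, 854 only in both ku70 libraries, 239 only in both DJ libraries, 7954 in some other mix and 16050 in none. The imbalance shrank with a higher FPKM limit: 592 and 420 genes were seen only in ku70 and only in DJ at 1 FPKM or more. At 5 FPKM or more in both libraries of a group and 0 in the other there were 54 and 41. A rule of more than 3 recovered reads left it nearly unchanged, at 827 and 248. Genes seen only in ku70 had a median of 23.5 reads in ku70, those seen only in DJ a median of 45.5 reads in DJ, against 269.5 reads in ku70 and 290 reads in DJ for genes above 0 in all 4 libraries. Assembled transcripts with no rice gene identifier made up 17.2% of the genes seen only in ku70 and 10.9% of those seen only in DJ, against 3.88% of the genes above 0 in all 4.

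Zeros were also common between libraries of the same line. Of the genes at 5 FPKM or more in DJ replicate 1, 5.89% were at 0 in DJ replicate 2, and 3.06% the other way round, while the 2 ku70 libraries missed 1.19% and 1.04% of each other's genes. Between lines the share ranged over 2.12% to 5.44%. A zero in a pair of libraries is therefore no proof of an absent transcript, and genes chosen for zeros in 1 line differ by that choice.

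**Figure D4:**
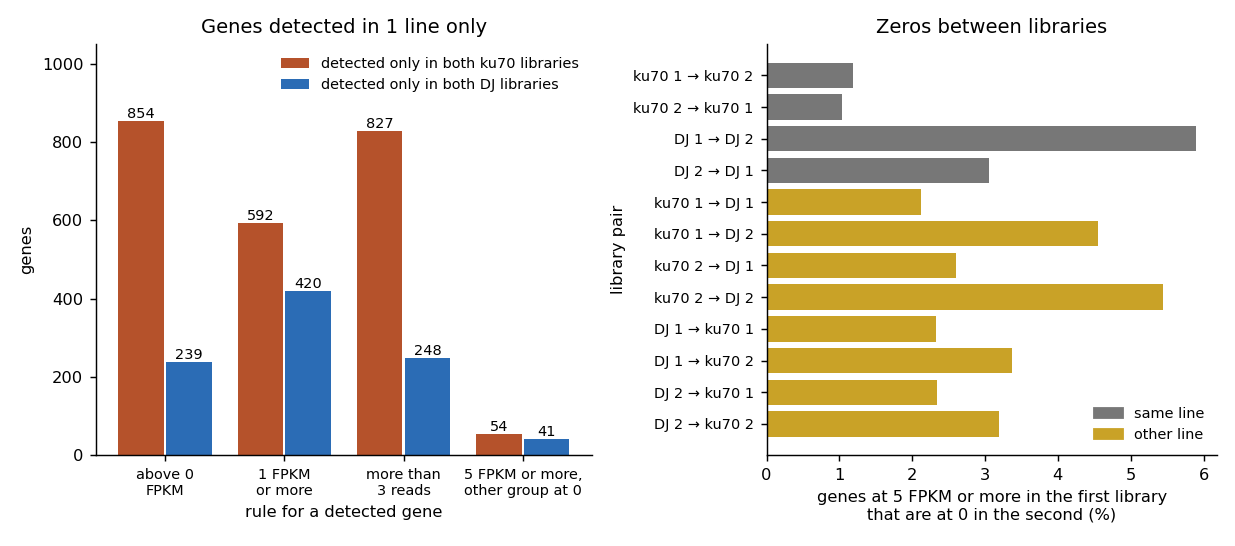
Left, number of genes detected in both libraries of only 1 line under 4 rules, ku70 beside DJ. There were 854 and 239 genes above 0 FPKM, 592 and 420 at 1 FPKM or more, and 827 and 248 at more than 3 reads. With the other line at 0, 54 and 41 were at 5 FPKM or more. Right, for each pair of libraries, the percent of genes at 5 FPKM or more in the first that were at 0 in the second; the DJ pair reaches 5.89%, as high as pairs of different lines.

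Among the described genes seen only in ku70, the highest were OsFLA8, given above, Os04g0445300 and Os06g0640599. Os04g0445300, described as a pectin methylesterase inhibitor, had 34.5 and 26.1 FPKM (adjusted p = 0.284), and Os06g0640599, described as a tabersonine hydroxylase, had 26.1 and 32.3 FPKM (adjusted p = 0.0103). They were followed by a glutamine tRNA gene (tRNA-Gln) at 26.95 and 23.4 FPKM (adjusted p = 0.0125), RZ53 (Os11g0210201) at 19.6 and 31.2 FPKM (adjusted p = 0.157) and Os01g0706800, a jacalin-related lectin, at 26.7 and 18.1 FPKM (adjusted p = 0.071). An assembled phosphofructokinase transcript with no rice gene identifier had 11.99 and 16.5 FPKM (adjusted p = 0.154), and ROS1D (Os05g0446550), a gene of the DNA demethylase family, had 11.8 and 14.6 FPKM (adjusted p = 0.182). All 8 were listed at 0 in both DJ libraries, and only 2 of the 8 were called.

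Among the described genes seen only in DJ, a lipid transfer protein and an auxin-responsive gene stood highest. OsLTP1.5 (Os06g0157900) had 105.5 and 111.5 FPKM in DJ (adjusted p = 0.366), and OsSAUR57 (Os12g0609600), of the small auxin-up RNAs that mark growing tissue, had 92.5 and 56.9 FPKM in DJ (adjusted p = 0.285). OsCYP734A2 (Os02g0204700), a cytochrome P450 of the group that inactivates brassinosteroids, had 19.5 and 17.7 FPKM in DJ (adjusted p = 0.067). Os11g0649500, with a DUF588 domain, had 24.7 and 35.9 FPKM (adjusted p = 0.254), and Os03g0370400, with a DUF679 domain, had 20.1 and 16.2 FPKM (adjusted p = 0.279). Os09g0555150, a sulfotransferase, had 20.3 and 15.4 FPKM (adjusted p = 0.16), and Os02g0590400, an acyltransferase, had 33.5 and 13.2 FPKM (adjusted p = 0.159). The eighth was OsLAC24, given above, and it alone of the 8 was called; all 8 were listed at 0 in both ku70 libraries.

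The libraries taken 6 h after 40 Gy gave a second line difference, from libraries that did not enter the untreated difference itself. The spread, however, was shared between the 2 comparisons. A gene with a small shared spread is favoured in both, so a repeated call is not an independent repeat. The 40 Gy difference also holds any difference between the lines in their response to radiation. There ku70 minus DJ gave 634 calls of 23063 genes tested, 2.75%. Of the 14 genes above 0 in all 4 untreated libraries and called, 11 had the same sign at 40 Gy and 6 were called again in the same direction. Of the remaining genes called untreated, 0 were called again in the same direction, 3 were called in the opposite direction, and 112 were at 0 in all 4 of the 40 Gy libraries. Over all genes above 0 in all 4 untreated libraries, 47.6% had the same sign in the 2 comparisons.

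The 6 genes with the same call in both comparisons were RBBI2-1, RBBI2-2, OsLOX1, OsDjC35, OsVIT2 and the undescribed Os01g0959750. At 40 Gy RBBI2-1 had 185 and 252 FPKM in ku70, against 0.378 and 0 FPKM in DJ (adjusted p = 0.00498), and RBBI2-2 had 348 and 198 FPKM in ku70, against 3.07 and 6.32 FPKM in DJ (adjusted p = 0.0107). OsLOX1 had 81.1 and 89.3 FPKM in ku70, against 18.7 and 27.9 FPKM in DJ (log2 difference 1.85, adjusted p = 0.0305). OsDjC35 had 198 and 196 FPKM in ku70, against 50.2 and 40.6 FPKM in DJ, a log2 difference of 2.10 where the untreated difference was 2.03 (adjusted p = 0.0125). OsVIT2 had 17.1 and 16.1 FPKM in ku70, against 178.5 and 228 FPKM in DJ (log2 difference -3.53, adjusted p = 0.00612). For each of these 5 genes the groups lay apart both untreated and at 40 Gy. The undescribed gene had 2669 and 2452 FPKM in ku70, against 222 and 341 FPKM in DJ at 40 Gy (log2 difference 3.21, adjusted p = 0.0181).

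Protein artemis (Os01g0881400) and OsC3H41, which had just missed the threshold untreated, were called at 40 Gy in the same direction. Protein artemis had 135 and 162 FPKM in ku70, against 27.3 and 33.8 FPKM in DJ (log2 difference 2.24, adjusted p = 0.0381), close to its untreated difference of 2.18. OsC3H41 was at 0 in both ku70 libraries and at 3.99 and 4.40 FPKM in DJ (adjusted p = 0.0337). PARP2A, seen only in ku70 untreated, had 148 and 270.3 FPKM in ku70, against 10.55 and 9.19 FPKM in DJ (log2 difference 4.21, adjusted p = 0.0168). ST1 had 697 and 661 FPKM in ku70, against 48.9 and 66.2 FPKM in DJ, a log2 difference of 3.55 that missed the threshold (adjusted p = 0.064), where the untreated difference was 3.66. All 4 of these genes had the same direction in both comparisons, but they were picked for that. OsTCL2, which had also just missed the threshold untreated, was called at 40 Gy in the opposite direction (log2 difference 2.96, limma adjusted p = 0.0203). OsPOD (1.51), PSAH (-0.74) and the alkB homolog Os11g0657200 (0.25) also turned their sign, without a call. OsAPx4 (0.33) and Os07g0142900 (0.25) kept theirs without a call. KU70 kept its direction, at 7.85 and 15.8 FPKM in ku70 and 2.94 and 2.76 FPKM in DJ, without a call (log2 difference 1.66, adjusted p = 0.395).

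Several wall and surface genes did not keep their untreated difference at 40 Gy. OsXTH10 had 146 and 82.6 FPKM in ku70 and 82.8 and 98.5 FPKM in DJ there, and prx65 had 35.2 and 60.4 FPKM in ku70 and 46.1 and 59.1 FPKM in DJ, so both overlapped. OsLTP1.17 had 5287.5 and 3674 FPKM in ku70 and 2944 and 3575.5 FPKM in DJ. The change of the line difference between treatments passed the interaction test for these 3 genes (adjusted p = 0.0212 for OsXTH10, 0.0477 for prx65 and 0.0479 for OsLTP1.17). The 3 genes were picked for their untreated difference, which enters that test. Loss of the difference was not confined to wall and surface genes: at 40 Gy the log2 difference was -0.0014 for RAC7 and 0.28 for RPS20. Over the families, the cellulose synthases had a median of -0.42 at 40 Gy with 5 of 7 genes below 0, the fasciclin-like genes a median of 0, and the secondary wall list a median of -0.13 with 39 of 73 below 0. The photosystem median was -0.59 at 40 Gy, with 24 of 30 genes below 0 (54.4% of all genes tested), against a median of -0.14 over all genes, and the chloroplast ribosome median was -0.91. Of the 30 photosystem genes, 0 had an interaction that passed after adjustment (1.15% of all genes), with PsaE (Os07g0435300) and PSAH close to the threshold (adjusted p = 0.051 and 0.0519). The median change of the difference over the list was -1.64, against -0.27 over all genes.

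**Figure D5:**
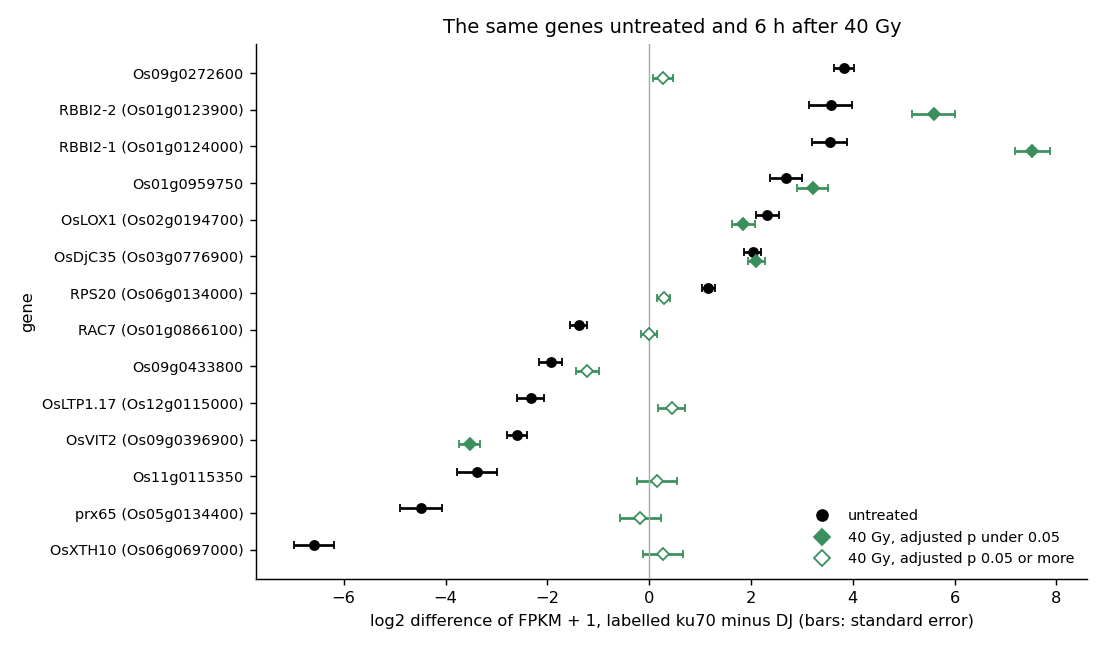
Log2 difference of FPKM + 1 between libraries labelled ku70 and DJ for the 14 genes above 0 in all 4 untreated libraries and called there, untreated (black circles) and 6 h after 40 Gy (green diamonds, filled where the adjusted p is under 0.05), with bars for the standard error. Of the 14, 6 have filled diamonds on the same side of 0. Those near 0 at 40 Gy include OsXTH10, prx65, Os11g0115350, RAC7 and RPS20.

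Genes seen in 1 line only rarely showed the same pattern after irradiation. Of the 854 genes seen only in ku70 untreated, 20 (2.34%) were seen only in ku70 at 40 Gy and 77 (9.02%) only in DJ. Of the 239 genes seen only in DJ untreated, 9 (3.77%) were seen only in DJ at 40 Gy and 9 only in ku70. Over all genes listed, 0.484% were seen only in ku70 and 4.47% only in DJ at 40 Gy, so the direction of the imbalance was the opposite of that in untreated leaves. Detection as a whole was also lower in ku70 there. The 40 Gy libraries had 15067 and 15005 genes above 0 in ku70, against 18859 and 19109 in DJ. The part of this gap in the imbalance was not tested. Of the 54 strongest genes of ku70 alone, 1 kept the pattern, and of the 41 of DJ alone, 0 did.

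Along the chromosomes, the genes seen in 1 line only were spread over all 12. The share of listed genes seen only in ku70 ranged from 1.75% on chromosome 3 to 2.65% on chromosome 5, and that seen only in DJ from 0.41% on chromosome 5 to 0.788% on chromosome 11. The densest run of neighbours with higher values in ku70 lay on chromosome 7 between 1844593 and 1981459, where 8 of 10 adjacent tested genes were higher by more than 1 on the log2 scale without overlap, a mark that 8.46% of genes reached. It was the only one of 22898 such runs of 10 genes with 8, and the run was picked for its values and carries no test. Within it Os07g0137000, with no description, had 17.3 and 15.5 FPKM in ku70, against 0.400 and 1.565 FPKM in DJ, and at 40 Gy 47.8 and 59.1 FPKM in ku70, against 0 and 5.76 FPKM in DJ. Its neighbour Os07g0136800, described as cytochrome P450 90D2, an enzyme of brassinosteroid synthesis, had 0.558 and 2.27 FPKM in ku70 and 0 in both DJ libraries, and at 40 Gy 20.7 and 16.4 FPKM in ku70, against 0 and 0.918 FPKM in DJ. At 40 Gy 7 of the 10 genes again had higher values in ku70. The densest runs of lower genes held 5 of 10.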

How the data were processed

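The deposited values are FPKM per gene, with untreated and 40 Gy libraries in separate tables, a column per library, per the file headers. The RNA was sequenced after a strand-marking library kit, per the labels' protocols. The sources used here name no genome build, aligner or counter and do not say whether counting used strand, so overlapping, antisense and near-identical genes may share reads. The deposited FPKM were whole multiples of the value of 1 read for 100% of values (tolerance 0.01 reads), which gave the recovered reads per library. The authors' scaling was not the total of these reads: reads per unit of scaling size were 1.24 and 1.28 in the ku70 libraries and 1.03 and 1.06 in the DJ libraries. Depth limits precision most for genes with few reads.

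From these values log2(FPKM + 1) was computed, so fold changes of low genes are understated on that scale, while folds given as "-fold" are ratios of mean FPKM. Testing covered the 23063 of 40718 genes that reached 1 FPKM in 2 or more of 10 libraries. The fit was limma-trend (limma 3.58.1 in R 4.3.3, with version 1.17.8 of data.table) with 6 groups that share 1 spread (4 residual degrees of freedom, 1.3 prior). The groups were ku70 and DJ, untreated and at 40 Gy, and 2 single 40 Gy libraries of other lines. Those 2 libraries, labelled TOP6A3-OE1 and TOP6A3-OE1 atm, add no spread but count in the filter. Contrasts were ku70 minus DJ within each table and the difference of these differences, tested as an interaction, with Benjamini-Hochberg adjustment over all genes tested and a threshold of 0.05. A called gene is one with an adjusted p under 0.05. Summaries and figures used Python 3.11.15, pandas 2.3.3, numpy 2.4.6 and matplotlib 3.10.9.

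Named genes were KU70 and KU80, the 10 largest called rises and falls among described genes above 0 in all 4 libraries without overlap and at a mean of 5 FPKM or more (filled by order of p), the 8 highest described genes in each direction at 0 in 1 group and at 5 FPKM or more in the other, and up to 3 members of each of 20 lists by p. The lists were drawn from symbols and descriptions, and described genes outside the rule were chosen after their values were seen. Members, lists and named genes were chosen with earlier results of these data known. Alternatives changed the pseudocount, the filter, the libraries fitted, the scaling, the library weights, the model and the replicates left out. Scaling to total reads and the 8-library fit without a block were added after seeing the data.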

Additional observations from a re-analysis of the deposited data

Results flagged for a closer look

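In 17 of the 87 named genes the interaction test of limma gave an adjusted p under 0.05, against 1.15% of all genes tested. The test compares the ku70 minus DJ difference at 40 Gy with the untreated one. Apart from KU70 and KU80, the named genes were chosen by their untreated values, which enter that test. The shares therefore do not compare, and the part of radiation in the count was not tested. Some of the 17 were undetected in every ku70 and DJ library at 40 Gy. Their change is only the untreated difference with its sign turned, and replicates without spread keep its standard error small. The values are the 40 Gy difference minus the untreated difference, on the log2(FPKM + 1) scale.

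The difference moved up for 8 of these 17 genes. OsXTH10 changed by 6.86, prx65 by 4.31 and OsLTP1.17 by 2.77, each lower in ku70 untreated and not called at 40 Gy. OsTCL2 changed by 5.21, with 18.8 and 16.4 FPKM in ku70 and 1.09 and 1.73 FPKM in DJ at 40 Gy. RBBI2-1 changed by 3.98, on top of its untreated rise. OsGSTU14 (3.56), OsFLA9 (2.83) and petD (CAA33978, 2.16) were at 0 in both ku70 libraries untreated, and at 40 Gy OsGSTU14 and OsFLA9 were at 0 in all 4 libraries and petD in 3 of 4.

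The difference moved down for the other 9. The assembled phosphofructokinase transcript changed by -7.74, Os05g0367900 by -5.21 and OsWRKY60 by -5.13, all seen only in ku70 untreated and only in DJ at 40 Gy. Os06g0640599 (-4.91), tRNA-Gln (-4.71), Os03g0259500 (-2.20) and OsCOMTL1 (-1.38) were seen only in ku70 untreated and in no library at 40 Gy. Os09g0266000, with a reverse transcriptase domain, changed by -4.62, with 58.8 and 71.3 FPKM in ku70 and 37.8 and 43.5 FPKM in DJ untreated, and 0 in both ku70 libraries and 20.9 and 10.1 FPKM in DJ at 40 Gy. Hd2 (Os07g0695100), a flowering regulator of the clock list, changed by -1.60, with 165 and 189 FPKM in ku70 and 130 and 136 FPKM in DJ untreated, and 27.2 and 25.3 FPKM in ku70 and 57.5 and 65.7 FPKM in DJ at 40 Gy.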

How the results depend on the processing

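The number of genes called moved with the settings. Leaving out a DJ replicate turned the balance of calls to more lower than higher ones. Leaving out a ku70 replicate moved it the other way, to a larger excess of higher ones. Against 143 calls, a pseudocount of 0.1 gave 272, a pseudocount of 5 gave 60, the fit of genes above 0 in all 4 untreated libraries 3, quantile normalization 1, and the fit of the 4 untreated libraries alone and limma-voom on recovered reads 0 each. Leaving out a replicate gave 182 to 241 calls, where the lone library is assumed to vary like the other groups. List members called numbered 17, against 26 at a pseudocount of 0.1, 8 at 5, 1 with genes above 0 in all 4 untreated libraries, 0 with the 4 untreated libraries alone, quantile normalization or limma-voom, and 10 to 18 without a replicate. Of the named genes, 0 changed sign among the alternatives run. The 14 called genes above 0 in all 4 libraries kept their sign in all 16 alternatives, and were called in 4 (OsLTP1.17, Os01g0959750) to 13 (OsXTH10) of them. The groups of these 14 genes, and of most named genes, did not overlap. Changing the pseudocount, filter or weights, or leaving out a replicate, cannot turn the sign of such a gene. The kept signs are therefore no measure of stability.

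Replicate numbers gave no sign of pairing the libraries. Replicate 1 minus replicate 2 was taken within each group and correlated across genes between groups. The correlation was 0.009 between untreated ku70 and untreated DJ, and the other pairs of groups lay between -0.074 and 0.012. With a replicate block on the 8 ku70 and DJ libraries 0 genes and 0 list members were called (1559 genes at an unadjusted p under 0.05), against 162 genes without the block.

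List medians moved as follows, with scaling to total reads added after seeing the data. The photosystem median of 0.92 became 0.51 under quantile normalization, 0.66 when scaled to total reads, and 0.84 to 1.05 without a replicate. The light-harvesting median of 0.64 became 0.31 and 0.37 under the same scalings and 0.61 to 0.77 without a replicate. The Calvin cycle median of 0.69 became 0.48 at a pseudocount of 5, 0.35 with no filter, 0.16 under quantile normalization, 0.43 when scaled to total reads and 0.54 to 0.71 without a replicate. The chloroplast ribosome median of 0.70 became 0.44 when scaled to total reads and 0.47 to 0.85 without a replicate. The secondary wall median of -0.42 became 0 with no filter and lay between -0.469 and -0.058 without a replicate. Genes seen only in ku70 fell to 54 at 5 FPKM or more, against 854, and those only in DJ to 41, against 239, with 420 at 1 FPKM or more. At more than 3 recovered reads the 2 counts were 827 and 248. Of the 143 genes called untreated, 20 kept their sign at 40 Gy, 11 had the opposite sign and 112 were at 0 in all 4 of the 40 Gy libraries. Against these 20, there were 10 among genes above 0 in all 8 libraries, 32 at a pseudocount of 0.1 and 13 at 5. The number called untreated was 272 and 60 at those pseudocounts, so these counts do not compare as shares. The cause of these shifts was not tested.

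With 2 libraries a group, their number limits the precision of every gene, and few reads add counting error to low genes.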
